A study of Homo sapiens with 4 samples.

Results

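Methylosome and SMN complex transcripts were followed through 10 genes: *CLNS1A*, *PRMT5*, *WDR77*, *RIOK1*, *COPRS*, *GEMIN2*, *GEMIN4*, *GEMIN5*, *GEMIN6* and *STRAP*. They were taken by symbol from the 51136 rows of an RNA-seq table. All 10 were among the 15504 genes tested, which reached 1 FPKM or more in 2 or more libraries. FPKM are reads scaled by gene length and by the library's total. Comparisons between libraries still depend on the scaling, and those between genes on the length used. The set was chosen by the FPKM differences between si-DLX6 and si-control libraries that are described here. Its values are therefore given as a description, and the number of its genes past a threshold supports nothing by itself.

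The study compared cells transfected with small interfering RNA against the homeobox gene *DLX6* with cells transfected with a control RNA. The first are si-DLX6 (genotype DLX6 knockdown, 2 libraries) and the second si-control (genotype WT, 2 libraries). The si-DLX6 columns are headed HR99SEQ1_Si and HR99SEQ2_Si, and the headers do not say whether SEQ marks different RNA sequences. All 4 libraries are labelled A549, a human lung adenocarcinoma line, and were made from total RNA. The labels also name adipogenic differentiation as the treatment of all 4, which neither the titles nor the transfection protocol mention. Whether replicate libraries are separate cultures is not stated, so p-values cover only how far these libraries spread, and that spread may be technical. In bulk RNA, fewer cells of a type and less RNA per cell cannot be told apart.

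Library totals, recovered from the deposited values, were 9678221 to 12075285 reads. The targeted gene, *DLX6*, gave 74 and 63 reads in the controls but 18 and 9 after knockdown, a difference of −1.39 on the log2(FPKM + 1) scale (limma, Benjamini-Hochberg adjusted p = 0.00859; 0.0667 with no filter on low genes). The keratin genes of simple epithelium, *KRT8* (100 to 138 FPKM) and *KRT18* (422 to 475 FPKM), were high in every library. The epithelial adhesion genes went against the label: *CDH1* was at 0 in 3 libraries and at 0.0189 FPKM in the other, and *EPCAM* reached 0.437 FPKM at most. *KRT7* stood at 0.589 to 1.33 FPKM. *MUC1*, an epithelial mucin gene, stood at 1.26 and 1.69 FPKM in the controls and 2.96 and 3.72 FPKM after knockdown, the list's only call (0.81, adjusted p = 0.0303 by limma). That call was lost without si-control 1 (0.122), si-control 2 (0.0606) or si-DLX6 2 (0.108). Of genes looked at after their values were seen, *AKR1B10* and *ALDH1A1*, both known as abundant in A549, reached at most 0.377 and 0.0805 FPKM. *CDKN2A*, known to be deleted in A549, stood at 19.4 to 23.0 FPKM, and *MTAP*, also looked at for the label, at 7.03 to 15.6 FPKM. Transcripts of adipocytes (5 of 5 markers), leukocytes (4 of 4) and fibroblasts (4 of 4) were below 1 FPKM in all libraries. The cells are therefore called here by their label, and the results below are those of the libraries labelled A549.

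Splicing runs on small nuclear ribonucleoproteins (snRNPs), each a small nuclear RNA (snRNA) carrying a ring of Sm proteins. The ring is built in the cytoplasm. *CLNS1A* encodes pICln, a chaperone that holds newly made Sm proteins and brings them to PRMT5, an enzyme that places symmetric dimethyl marks on arginines. PRMT5 works as a complex with the WD-repeat protein WDR77 (also called MEP50), known as the methylosome. pICln, the kinase RIOK1 and the nuclear protein COPRS are adaptors that direct PRMT5 to different substrates, and pICln and RIOK1 compete for PRMT5. The methylated Sm proteins pass to the SMN complex, made of SMN and the Gemin proteins with STRAP (also called UNRIP), which closes the ring on the snRNA.

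Of the 10 genes, 5 were lower with si-DLX6 past an adjusted p of 0.05 (*CLNS1A*, *PRMT5*, *WDR77*, *GEMIN4* and *GEMIN5*) and 0 were higher (limma; 0 also at an unadjusted p under 0.05 and by limma-voom on recovered reads). Over all 15504 genes tested, 9.49% were called lower and 10.2% higher. In 6 of the 10 both si-DLX6 libraries lay below both si-control libraries, as they did in 27.9% of all genes tested. In *COPRS* both lay above, as in 5439 of the 15504 genes tested. In the other 3 the groups overlapped, as in 5736 of all genes tested. The median log2 difference of the 10 was −0.36, beside 0.05 over all genes tested. Summed over the 10 genes, the level was 471.9 and 492.7 FPKM with si-control and 357.1 and 357.3 FPKM with si-DLX6.

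**Figure D1:**
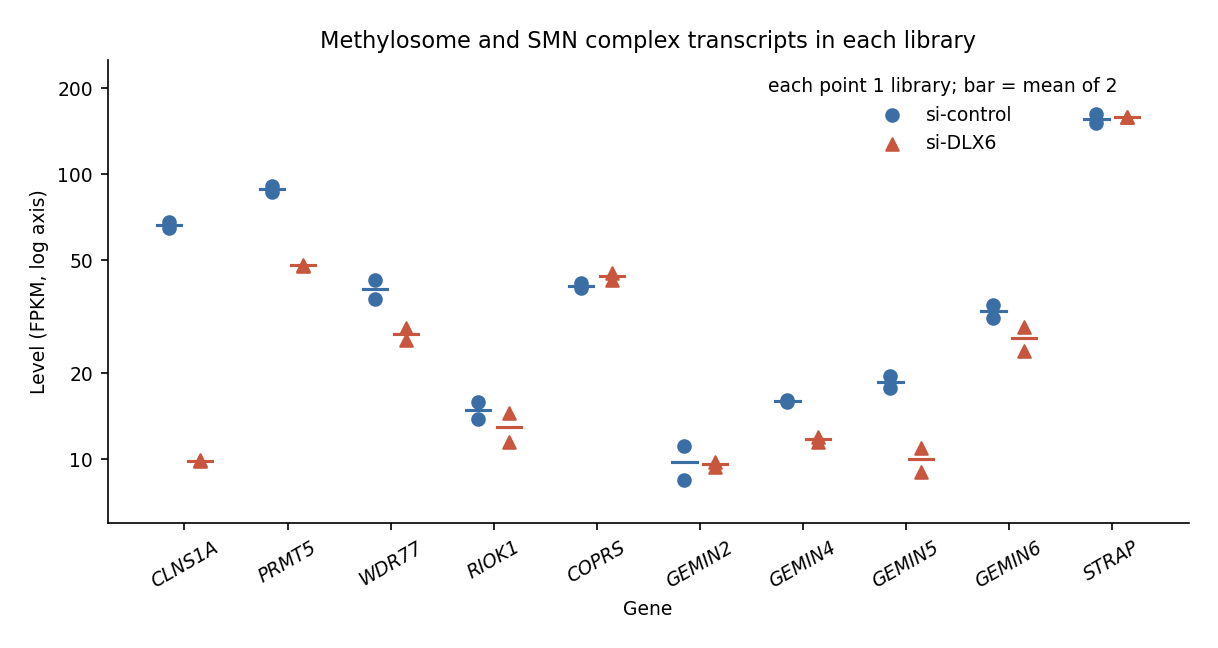
Level of each of the 10 genes in FPKM on a log axis, with 1 point per library (circles, si-control; triangles, si-DLX6) and a bar at the mean of 2. *CLNS1A* drops from 64.2 and 67.8 to 9.86 and 9.90 FPKM, while *STRAP* stays between 151 and 161 FPKM in all 4 libraries.

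The pair that forms the enzyme is described first, with both promoters, since both genes were called lower. RefSeq (GRCh38.p14) gives the *PRMT5* window, 250 bases before to 50 bases after the start, as chr14:22929327-22929626 on the minus strand and the *WDR77* window as chr1:111449207-111449506 on the minus strand. Both are printed 5′ to 3′. All 10 genes matched a RefSeq window. Capitals mark ATTGG, the CCAAT box read on the other strand, and the YY1 motif AAGATGGCG in *PRMT5*, and the E-box CACGTG in *WDR77*.
PRMT5: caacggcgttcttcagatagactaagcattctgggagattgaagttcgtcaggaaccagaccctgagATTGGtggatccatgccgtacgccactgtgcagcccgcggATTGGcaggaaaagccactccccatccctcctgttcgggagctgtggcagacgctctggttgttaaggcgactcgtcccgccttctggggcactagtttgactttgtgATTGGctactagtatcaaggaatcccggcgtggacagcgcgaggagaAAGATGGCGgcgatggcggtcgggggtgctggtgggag
WDR77: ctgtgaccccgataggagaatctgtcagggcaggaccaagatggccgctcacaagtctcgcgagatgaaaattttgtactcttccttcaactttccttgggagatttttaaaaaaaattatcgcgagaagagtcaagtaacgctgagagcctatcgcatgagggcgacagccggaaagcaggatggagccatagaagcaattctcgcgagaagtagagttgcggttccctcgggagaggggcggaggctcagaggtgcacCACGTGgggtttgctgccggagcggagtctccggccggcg

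*PRMT5* (GENCODE 29, GRCh38, chr14:22920511-22929585, minus strand) stood at 90.2 and 86.4 FPKM with si-control and at 47.9 and 47.6 FPKM with si-DLX6. These are 2849 and 2188 reads against 1314 and 1329 reads, so both si-DLX6 libraries were well below both controls and close to each other. The fall was 1.85-fold in mean FPKM, or −0.87 on the log2(FPKM + 1) scale (SE 0.09, n = 2 and 2). Per read of library total, 54.0% of the control reads remained with si-DLX6 (95% exact interval, for counting error only, 51.5% to 56.6%). By size of fall *PRMT5* was number 441 of the 15504 genes tested. It was called in all 10 alternative settings tried, among them each of the 4 that left out 1 library. The antisense gene *PRMT5-AS1*, which overlaps it, had at most 3 reads in a library, and the processed pseudogene *PRMT5P1* had 23 and 15 reads against 7 and 16.

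*WDR77* (chr1:111439890-111449376, minus strand), the partner that PRMT5 needs for full activity, fell less. It stood at 36.5 and 42.6 FPKM with si-control and at 26.2 and 28.8 FPKM with si-DLX6, with no overlap between the groups. The mean went from 39.5 ± 4.32 to 27.5 ± 1.86 FPKM (SD, n = 2 each), a log2 difference of −0.50 (SE 0.12), and 70.2% of the reads remained (95% exact interval 65.6% to 75.2%). The call was lost when si-control 2 (log2 difference −0.40), si-DLX6 1 (−0.44) or si-DLX6 2 (−0.57) was left out, and with upper-quartile scaling (−0.41). The ratio of *WDR77* to *PRMT5* FPKM was 0.404 and 0.493 in the controls, then 0.546 and 0.605 after knockdown, so both knockdown libraries held more *WDR77* per *PRMT5* transcript than either control. *WDR77* overlaps *ATP5PB* on the other strand, and the sources used here do not say whether counting was by strand.

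Of the 3 adaptors, *CLNS1A* fell steeply, while *RIOK1* and *COPRS* did not pass the threshold. The *CLNS1A* window is shown because no other gene tested fell further on this scale. It is chr11:77637745-77638044 on the minus strand, and the capitals mark CTTCCGG (the ETS motif CCGGAAG on the other strand), whose first base lies 16 bases before the start.
CLNS1A: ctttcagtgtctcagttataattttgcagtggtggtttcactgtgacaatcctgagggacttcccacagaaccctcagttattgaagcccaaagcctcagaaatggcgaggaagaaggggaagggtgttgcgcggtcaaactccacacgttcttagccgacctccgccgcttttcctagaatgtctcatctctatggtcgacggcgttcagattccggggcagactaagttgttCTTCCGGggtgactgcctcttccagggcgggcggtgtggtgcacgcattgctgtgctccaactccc

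*CLNS1A* (chr11:77514936-77637805, minus strand) stood at 64.2 and 67.8 FPKM with si-control and at 9.86 and 9.90 FPKM with si-DLX6. The reads were 1065 and 901 against 142 and 145. The replicates of each group nearly coincided and the groups were far apart. The mean went from 66.0 ± 2.52 to 9.88 ± 0.0269 FPKM (SD, n = 2 each), a 6.68-fold fall or −2.62 on the log2(FPKM + 1) scale (SE 0.10). Per read of library total 15.01% remained (95% exact interval 13.2% to 17.0%). This interval for counting error is wide beside the SD of the si-DLX6 libraries, which rests on 2 values and understates the error. In rank of level among genes tested, *CLNS1A* went from percentiles 91.0 and 91.8 to 59.8 and 58.5. Its log2 difference lay between −2.73 and −2.53 in the 10 alternatives, all of which called it.

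The processed pseudogene *CLNS1AP1* (chr6:54485169-54485850, minus strand), a near copy, had 24 and 20 reads against 4 and 2, and reads of the pair may have been split between them. *AQP11*, which lies on the other strand within the *CLNS1A* span, gave 32 and 31 reads after knockdown against 18 and 13 in the controls.

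*RIOK1* (chr6:7389496-7418037, plus strand), the adaptor that brings nucleolin to PRMT5, stood at 13.9 and 15.9 FPKM with si-control and at 11.5 and 14.6 FPKM with si-DLX6. The groups overlapped, and the log2 difference of −0.19 (SE 0.15) was about as large as its error. The interval of the reads that remained was 80.1% to 97.0%, which covers counting error only.

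*COPRS* (chr17:31851864-31859337, minus strand), which ties PRMT5 to histones in the nucleus, stood at 39.6 and 41.2 FPKM with si-control and at 44.9 and 42.3 FPKM with si-DLX6. Both knockdown libraries were slightly above both controls. The log2 difference was 0.11 (SE 0.10) and was not called. It was 0.02 with median-of-ratios scaling and 0.21 with upper-quartile scaling, and was called with neither.

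The 3 adaptors made up different shares of their sum in the groups. *CLNS1A* made up 54.6% and 54.3% of their summed FPKM in the controls, then 14.9% and 14.8% after knockdown. *COPRS* made up 33.7% and 33.0%, then 67.8% and 63.4%. *RIOK1* made up 11.8% and 12.7%, then 17.3% and 21.8%. The sum itself was 117.7 and 124.9 FPKM with si-control and 66.2 and 66.8 FPKM with si-DLX6, so the larger shares of *COPRS* and *RIOK1* accompanied a smaller total. Per *PRMT5* transcript, *CLNS1A* went from 0.712 and 0.785 to 0.206 and 0.208. These shares restate values the choice of genes used and carry no test.

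**Figure D2:**
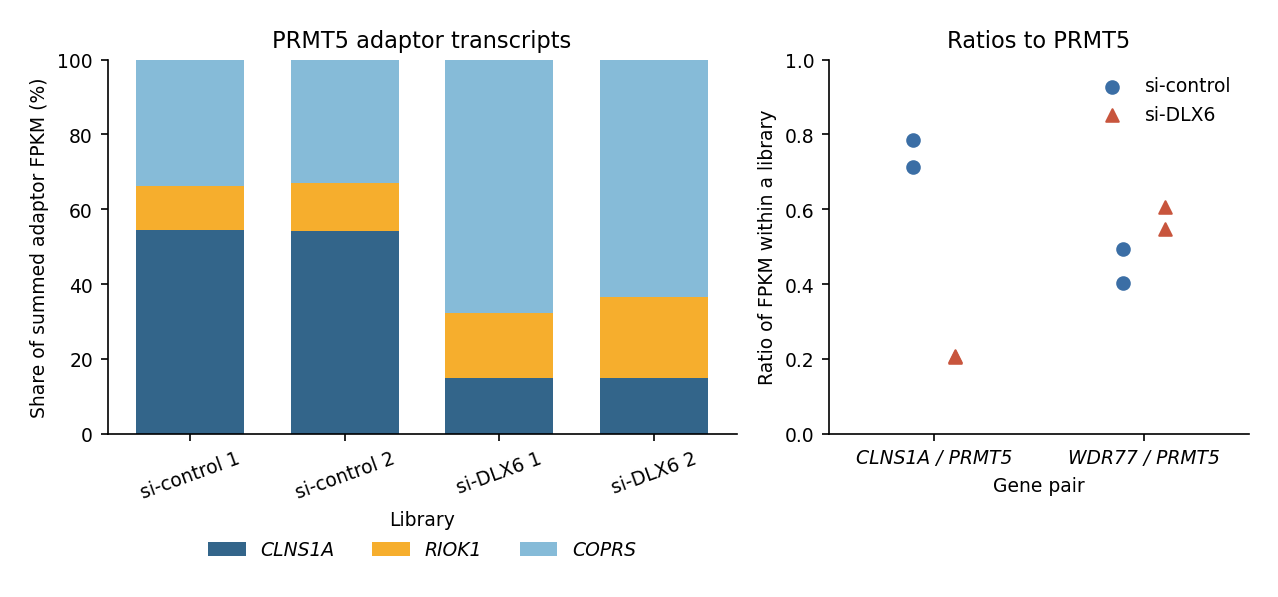
Left, share of the summed FPKM of the 3 PRMT5 adaptor genes in each library (%). Right, FPKM ratios of *CLNS1A* and *WDR77* to *PRMT5* within each library: *CLNS1A* goes from at least 0.712 to at most 0.208, and *WDR77* from at most 0.493 to at least 0.546.

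Among the SMN complex genes of the set, *GEMIN5* and *GEMIN4* fell, *GEMIN6* was lower without passing the threshold, and the groups overlapped for *GEMIN2* and *STRAP*. *GEMIN5* (chr5:154887416-154938209, minus strand) encodes the subunit that recognises snRNAs. It stood at 17.7 and 19.5 FPKM with si-control and at 8.98 and 11.0 FPKM with si-DLX6. The groups were apart, with 1155 and 1020 reads against 509 and 632. The fall was 1.86-fold in mean FPKM and −0.84 on the log2(FPKM + 1) scale (SE 0.14), and 54.0% of reads remained (95% exact interval 50.2% to 58.0%). It was called without each library in turn, but not when genes of low level were kept in the fit.

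*GEMIN4* (chr17:744414-753999, minus strand), which binds the helicase Gemin3, stood at 16.2 and 15.8 FPKM with si-control and at 11.999 and 11.5 FPKM with si-DLX6. Both groups were tight and they did not overlap. The log2 difference was −0.42 (SE 0.11), and 73.3% of reads remained (95% exact interval 68.2% to 78.8%). Its call was lost without any 1 library: leaving out si-control 1 gave −0.40, si-control 2 gave −0.43, si-DLX6 1 gave −0.45 and si-DLX6 2 gave −0.39. Upper-quartile scaling (−0.32) ended it too. *GEMIN6* (chr2:38751534-38785000, plus strand), whose product pairs with Gemin7 in an Sm-like fold, stood at 34.6 and 31.3 FPKM with si-control and 28.97 and 24.0 FPKM with si-DLX6. The knockdown libraries lay lower, yet the SD of the si-DLX6 libraries was 3.52 FPKM, and the log2 difference of −0.31 (SE 0.13) was not called.

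*GEMIN2* (chr14:39114223-39136973, plus strand) encodes the subunit that grips the incoming Sm proteins. It was the lowest of the 10, with 8.47 and 11.1 FPKM in the si-control libraries and 9.40 and 9.80 FPKM in the si-DLX6 libraries. The knockdown values fell between the control values. The log2 difference was −0.01 (SE 0.16), and the reads allow 84.1% to 117.9% of the control level by counting error. *STRAP* (chr12:15882391-15903478, plus strand) was the highest, with 151 and 161 FPKM against 157 and 158 FPKM. Its groups overlapped, with a log2 difference of 0.02 (SE 0.10) and 101.5% of reads (95% exact interval 98.1% to 105.1%). The signs of *GEMIN2* and *STRAP* depended on the scaling. The ratio of *GEMIN2* to *GEMIN5* FPKM went from 0.479 and 0.569 to 1.05 and 0.893.

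In order of level with si-control the genes ran *STRAP*, *PRMT5*, *CLNS1A*, *COPRS*, *WDR77*, *GEMIN6*, *GEMIN5*, *GEMIN4*, *RIOK1* and *GEMIN2*. *COPRS* and *WDR77* overlapped there, as did *GEMIN4* and *RIOK1*. With si-DLX6 the order was *STRAP*, *PRMT5*, *COPRS*, *WDR77*, *GEMIN6*, *RIOK1*, *GEMIN4*, *GEMIN5*, *CLNS1A* and *GEMIN2*. Neighbours that overlapped were *WDR77* and *GEMIN6*, *RIOK1* and *GEMIN4*, and *GEMIN5* and *CLNS1A*. *CLNS1A* thus moved from number 3 to number 9. Its place above *GEMIN2* there rests on means of 9.88 and 9.60 FPKM. Both genes had 134 to 145 reads in each si-DLX6 library, so counting error could reverse these 2.

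**Figure D3:**
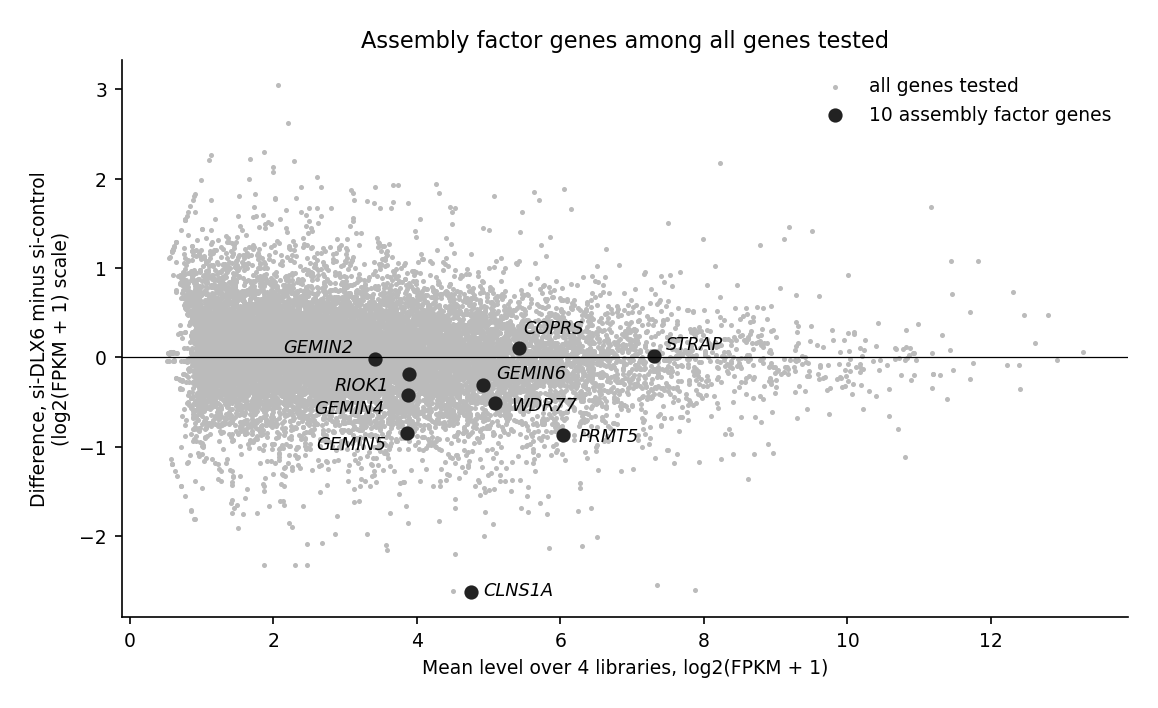
Difference si-DLX6 minus si-control against mean level, both on the log2(FPKM + 1) scale, for all 15504 genes tested (grey) and the 10 genes (black). *CLNS1A* lies at −2.62, the lowest of all, and the other 9 between −0.87 and 0.11.

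The genes whose pattern over the 4 libraries was most like that of *CLNS1A* were sought among the other 6282 genes whose mean reached 10 FPKM. Likeness was the Euclidean distance between log2(FPKM + 1) values after each gene's own mean was subtracted. The nearest were *HSPD1P1* (distance 0.0240), *HSPD1* (0.0808), *RAD23B* (0.427), *HSPD1P4* (0.466) and *MSN* (0.511). *HSPD1* encodes a mitochondrial chaperonin, and *HSPD1P1* and *HSPD1P4* are near-identical copies that can share its reads. *HSPD1* had 382 and 404 FPKM with si-control and 67.2 and 65.8 FPKM with si-DLX6. In mean FPKM *HSPD1P1* fell 6.72-fold, slightly more than the 6.68-fold of *CLNS1A*. By limma-voom on recovered reads their log2 differences were −2.744 and −2.734. The first rank of *CLNS1A* thus holds on the log2(FPKM + 1) scale and not by these measures. With 2 groups of 2, such likeness mostly orders genes by the size of their fall.

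The other genes of the SMN complex gave 0 calls among 5 tested by limma, beside 9.49% lower and 10.2% higher over all genes tested. They also gave 0 at an unadjusted p under 0.05 and 0 by limma-voom (median log2 difference −0.12). *SMN1* stood at 16.5 and 12.3 FPKM against 13.9 and 13.4 FPKM, and *SMN2* at 14.5 and 20.4 FPKM against 14.6 and 13.2 FPKM. These near-identical genes share reads, so their split is uncertain. *DDX20* (Gemin3, a helicase) had a log2 difference of −0.14, *GEMIN7* of −0.12 and *GEMIN8* of 0.32, with adjusted p-values of 0.576, 0.620 and 0.191 by limma.

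pICln carries Sm core proteins, and PRMT5 marks those of *SNRPB*, *SNRPD1* and *SNRPD3*. Of the Sm core genes, 4 of 7 tested fell and 0 rose (median log2 difference −0.45), beside 9.49% and 10.2% of all genes tested. As in the lists below where the count of rises is 0, it was also 0 at an unadjusted p under 0.05 and by limma-voom. *SNRPB* moved most. It stood at 666 and 592 FPKM with si-control and 272 and 219 FPKM with si-DLX6, so the groups were far apart. Its log2 difference was −1.36 (SE 0.14, adjusted p = 0.0043 by limma), and 38.8% of reads remained (95% exact interval 37.7% to 40.0%). *SNRPF* (−0.53, adjusted p = 0.0182), *SNRPD1* (−0.50, adjusted p = 0.0186) and *SNRPG* (−0.45, adjusted p = 0.0355) fell less. Without 1 library these 3 calls were unsteady. *SNRPD1* was lost without si-control 1 (adjusted p = 0.0639), si-control 2 (0.0664) or si-DLX6 2 (0.0783) by limma, over a range of 0.0440 to 0.0783. *SNRPF* was lost without si-control 1 (0.0788) or si-DLX6 1 (0.0612), and *SNRPG* without si-control 1 (0.133), si-control 2 (0.0791) or si-DLX6 1 (0.138). Upper-quartile scaling ended all 3 calls (0.0536 for *SNRPD1*, 0.0602 for *SNRPF* and 0.101 for *SNRPG*). With no filter 0 of the 4 falls were called by limma (0.0505 for *SNRPB*). Over all genes, 1005 of 15536 were called lower with upper-quartile scaling and 205 of 28637 with no filter, beside 1471 of 15504 in the main fit.

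*SNRPE* had a log2 difference of −0.44 (adjusted p = 0.0850 by limma), *SNRPD3* of 0.16 (adjusted p = 0.368) and *SNRPD2* of −0.03 (adjusted p = 0.918). *SNRPD2* was abundant throughout, at 1658 to 1887 FPKM. Per ring partner, *SNRPB* per *SNRPD3* went from 23.7 and 17.8 to 7.87 and 6.44 in FPKM. *SNRPN*, a neuronal relative of *SNRPB*, had 5 and 10 reads against 1 and 5 and was not tested.

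The other arginine methyltransferases of the human genome were counted beside *PRMT5*. Of 8 tested, 3 fell and 1 rose (median log2 difference −0.50), beside 9.49% and 10.2% of all genes tested. *PRMT1*, which places most asymmetric dimethyl marks, stood at 192 and 164 FPKM with si-control and at 78.6 and 67.7 FPKM with si-DLX6. Its groups were far apart, with a log2 difference of −1.27 (SE 0.12, adjusted p = 0.00399 by limma), a larger fall in value than that of *PRMT5*. *CARM1*, a coactivator enzyme, went from 42.4 and 37.6 to 20.1 and 22.2 FPKM (−0.89, adjusted p = 0.00696 by limma). *PRMT7* fell by 0.44 on the log2 scale (adjusted p = 0.0373) and *PRMT2* rose by 0.45 (adjusted p = 0.0257), by limma. Both lost the call without any 1 library, with adjusted p-values of 0.116 to 0.141 and 0.0793 to 0.105. *PRMT7* was also lost with upper-quartile scaling (0.0839) and *PRMT2* with median-of-ratios scaling (0.0596).

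*PRMT3* (−0.68, adjusted p = 0.0632), *PRMT6* (−0.56, 0.0792), *PRMT9* (0.25, 0.519) and *NDUFAF7* (0.29, 0.160) were not called by limma. *PRMT3* and *PRMT6* passed the threshold in 4 of the 10 alternatives: with median-of-ratios scaling (adjusted p = 0.0360 and 0.0409), with the replicate number as a block (0.0246 for each), by limma-voom (0.0250 and 0.0423) and without si-DLX6 2 (0.0202 and 0.0497). The falls of the list then numbered 5, 5, 5 and 4. Falls over all genes tested were 1816 of 15468 with median-of-ratios scaling, 2370 of 15504 with the block and 1664 of 15504 by limma-voom. *PRMT8* had 1 read in 1 library and was not tested.

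PRMT5 is held back by methylthioadenosine, which MTAP clears, and uses S-adenosylmethionine, which MAT2A makes. Of 9 such enzyme genes tested, 2 fell and 0 rose, beside 9.49% and 10.2% of all genes tested. *MTAP* went from 11.9 and 15.6 FPKM to 7.03 and 9.03 FPKM (log2 difference −0.71, adjusted p = 0.0380 by limma), and was lost without si-control 2 (adjusted p = 0.156) or si-DLX6 1 (0.122). *SRM*, spermidine synthase, a source of methylthioadenosine, fell by 0.51 (adjusted p = 0.0165) and was lost without si-control 1 (0.0560), si-control 2 (0.0650) or si-DLX6 2 (0.0656), and with upper-quartile scaling (0.0515). With no filter 0 of these enzyme genes were called, and 4 fell with median-of-ratios scaling or by limma-voom. Falls over all genes tested were 205 of 28637, 1816 of 15468 and 1664 of 15504 in these settings. *MAT2A* had a log2 difference of −0.29 (adjusted p = 0.0900 by limma). Beside 9.49% and 10.2% of all genes tested, 3 of 15 other PRMT5 substrates and partners fell and 0 rose. These were *SNRPB* and *SNRPD1*, counted above, and *NCL* (nucleolin, −0.38, adjusted p = 0.0401 by limma), which lost the call without any 1 library (0.114 to 0.173), with median-of-ratios scaling (0.0504) and with upper-quartile scaling (0.153).

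Further along the snRNP pathway, 3 lists held 7 falls and 0 rises, beside 9.49% and 10.2% of all genes tested. Of 10 *LSM* genes, relatives of the Sm proteins, 2 fell: *LSM2* (−0.74, adjusted p = 0.00975 by limma) and *LSM7* (−0.54, 0.0235). Of 8 genes for snRNA export, cap and import, 2 fell: *NCBP1* (cap binding, −0.73, 0.0222) and *KPNB1* (importin beta, −0.50, 0.0217). Of 19 genes for snRNA transcription and 3′ processing, 3 fell: *SNAPC2* (−1.44, 0.00399), *SNAPC5* (−0.42, 0.0313) and *INTS13* (−0.54, 0.0379). *SNAPC2*, a subunit of the complex that starts snRNA transcription, went from 15.3 and 13.2 FPKM to 4.86 and 4.36 FPKM, well below its controls. *LSM2* and *SNAPC2* were called without each library in turn. The others lost the call in 2 to 4 of these 4 fits: *LSM7* without si-control 1 or si-DLX6 2 (adjusted p = 0.0960 and 0.0824), *NCBP1* without si-control 2 or si-DLX6 1 (0.0938 and 0.0778), *KPNB1* without all but si-DLX6 2 (up to 0.0921), *INTS13* without all but si-control 1 (up to 0.165), and *SNAPC5* without any (0.0885 to 0.121). Upper-quartile scaling left 1 fall in each of these 3 lists, with *LSM7* (0.0787), *KPNB1* (0.0560), *SNAPC5* (0.0781) and *INTS13* (0.0524) no longer called by limma. With no filter, 1 of the 7 falls was called. Over all genes tested, falls numbered 1005 of 15536 with upper-quartile scaling and 205 of 28637 with no filter. By limma-voom *SNAPC5* was not called (0.0651).

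Of 38 genes for proteins particular to single snRNPs, 12 fell and 1 rose (median log2 difference −0.17), beside 9.49% and 10.2% of all genes tested. The count of falls was 6 with upper-quartile scaling and 3 with no filter. Falls over all genes tested also dropped, from 1471 of 15504 to 1005 of 15536 and 205 of 28637. They dropped as well when 1 library was left out. Leaving out si-control 1 or si-control 2 gave 5 falls, leaving out si-DLX6 1 gave 7 and leaving out si-DLX6 2 gave 6. Those with the smallest p-values were *PRPF31* (−1.37, adjusted p = 0.00232 by limma) and *PRPF4* (−1.09, 0.00362), both of the tri-snRNP, *DDX23* (−0.74, 0.00737), *SF3A3* (−0.73, 0.00819), *PRPF8* (−0.74, 0.0138) and *SNRNP25* (−0.51, 0.0190). *PRPF31* stood at 70.0 and 67.4 FPKM with si-control and 27.3 and 24.5 FPKM with si-DLX6. The first 5 were called without each library in turn, and *SNRNP25* was lost without si-control 1 (0.0680), si-control 2 (0.0634) or si-DLX6 2 (0.0798). The gene that rose, *PRPF3* of the tri-snRNP (0.41, adjusted p = 0.0435 by limma), is named after its value was seen. The count of rises was 0 without any 1 library, with median-of-ratios scaling and with no filter.

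**Figure D4:**
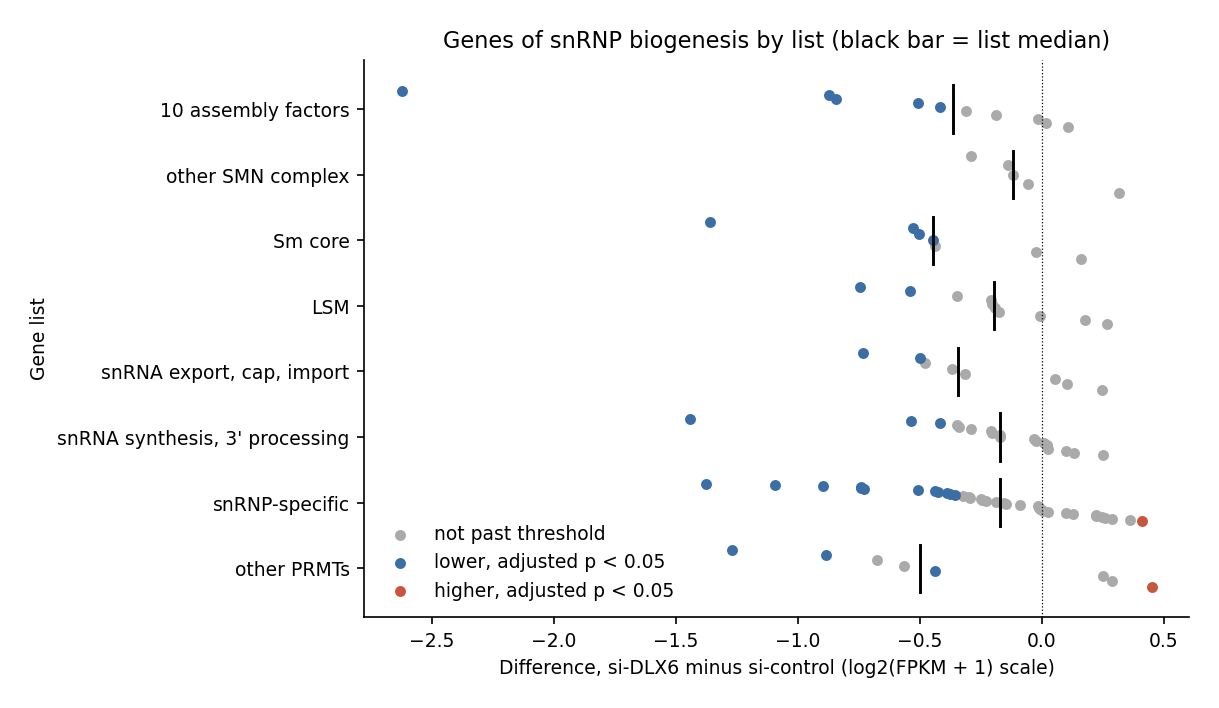
Difference si-DLX6 minus si-control on the log2(FPKM + 1) scale for each tested gene of the 10 and of 7 related lists, coloured by call, with a black bar at each list's median. The medians run from −0.50 (other arginine methyltransferases) to −0.12 (other SMN complex genes), and *CLNS1A* stands alone at −2.62.

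The snRNAs themselves were barely sampled. Of 13 snRNA genes, 5 reached the filter, all with at most 9 reads in a library. These reads allow no statement on snRNA levels. *RNU6ATAC* had 3 and 1 reads against 6 and 9, and was called higher (1.49, adjusted p = 0.0176 by limma) but not by limma-voom on reads (adjusted p = 0.0801).

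Of the 5 neighbours of *CLNS1A* on chromosome 11, limma called 0 lower and 1 higher, beside 9.49% and 10.2% of all genes tested. At an unadjusted p under 0.05 the neighbours numbered 1 lower and 2 higher, and by limma-voom 0 and 2. *RSF1* rose by 0.54 (adjusted p = 0.0398 by limma), a call lost without any 1 library (0.103 to 0.166). *AQP11* (0.52, adjusted p = 0.0783), *PAK1* (−0.37, 0.0857), *AAMDC* (0.22, 0.350) and *INTS4* (0.01, 0.964) were not called.

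No motif of the 8 searched on both strands of the promoter windows was in all 10. The ETS motif CCGGAAG was in 3 (*CLNS1A*, *GEMIN4* and *RIOK1*), beside 10.3% of 35116 windows of the same length, and the GC box GGGCGG was in 7, beside 45.0%. CCAAT was in 3 (*GEMIN2*, *PRMT5* and *STRAP*), beside 34.6%. The E-box CACGTG was in *WDR77* (7.26% of windows), AAGATGGCG in *PRMT5* (1.75%) and the NRF1 motif GCGCATGCG in *GEMIN2* (1.92%). TATAAA (11.5%) and TGACGTCA (1.85%) were in 0. A match is a run of letters and says nothing of binding.

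The 3′ UTRs were read for the word TCCTCA, which an earlier search over these same fold changes had picked out, so its presence is no separate support. *CLNS1A* holds it in 2 places of a 3′ UTR of 2188 bases, and these sites are shown because *CLNS1A* fell most of the 10 genes. The gene length recovered from its values was 1373 bases, shorter than that 3′ UTR. Whether the counted transcripts hold either site is therefore not known. Both sites are on the minus strand of chromosome 11 (GRCh38), at chr11:77616208-77616237 and chr11:77614975-77615004, with the word in capitals. The last is the match in the 3′ UTR of *DLX6*, the gene that was targeted, at chr7:97010644-97010673 on the plus strand.
CLNS1A, first site: tctgggatgaagTCCTCAaagtacttcaaa
CLNS1A, second site: tctgggcttattTCCTCAttagactaagtg
DLX6: gaaaaagaaaatTCCTCAcataacagccct
*RIOK1* and *GEMIN6*, which were not called, hold the word once each in their 3′ UTRs. The called *PRMT5*, *WDR77*, *GEMIN4* and *GEMIN5* hold it in 0 places of theirs. Elsewhere in the transcript *PRMT5* holds it in 1 place, *WDR77* in 2, *GEMIN5* in 2 and *GEMIN4* in 0. The recovered length of *GEMIN6*, 981 bases, was also shorter than its 3′ UTR of 3108 bases. The word occurs in the 3′ UTR of 36.1% of 10631 genes searched. The sources used here do not give the sequence of the small interfering RNA or RNAs, and the word's part in the fall was not tested.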

How the data were processed

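Total RNA of transfected cells (2 si-control and 2 si-DLX6 libraries, 1.3 µg of RNA each) went into a SMARTER mRNA-Seq preparation, per the labels' protocols. The authors deposited 1 table with a value per gene and library. The header names no unit. The reading of the deposited values as FPKM is an inference. They were taken as whole multiples of a step set by gene length and library total. All 28637 genes above 0 gave whole reads within 0.01 reads. The step was sought in each gene's own values, so this count does not test the reading. Library totals were inferred from the lengths of mitochondrial genes, and 5 of the 13 genes read gave the total used. Read counts, exact intervals, recovered lengths and limma-voom rest on these totals. The sources used here do not name the aligner, the counter or the use of strand. The submitters' processing notes list GRCm38 and mm10, a mouse build, although the rows are human genes. Positions come from GENCODE 29 (GRCh38) by symbol, and promoter windows from RefSeq.

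Columns were assigned through the names that the sample descriptions quote, and 0 value columns were left unused. limma-trend (limma 3.58.1, R 4.3.3) was run on log2(FPKM + 1) for the 15504 genes that reached 1 FPKM in 2 or more libraries, with group as the only term and Benjamini-Hochberg adjustment over all of them. A gene was called at an adjusted p under 0.05. This scale understates changes of low genes. Standard errors (SE) are limma's, moderated over genes. Read ratios are per library total, with exact 95% intervals that cover counting error only.

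The 10 genes and the 17 gene lists (166 genes) were chosen with earlier results of these data known. Genes named from a list are its called members, up to 6 by smallest p. Sm core, SMN complex and methyltransferase genes, *MTAP*, *MAT2A*, the *CLNS1A* neighbours, the 5 genes nearest *CLNS1A* and *DLX6* are named whether called or not. Alternatives were 2 scalings, a pseudocount of 0.1, no filter, a replicate block, leaving out each library, and, added after seeing the data, limma-voom on the recovered reads.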

Additional observations from a re-analysis of the deposited data

How the results depend on the processing

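In the 10 alternatives run, 0 of the 60 differences tried for named genes reversed while called. Over all genes, 3046 were called (51.7% of them higher). Median-of-ratios scaling called 2896 (37.3% higher) and upper-quartile scaling 3075 (67.3% higher), moving the median of all genes by −0.08 and 0.08 on the log2 scale. The count was 372 with no filter on low values and 1365 to 1689 when 1 library was left out. Of the 10 assembly genes 5 were called, 3 with upper-quartile scaling, 2 with no filter (*CLNS1A* and *PRMT5*), and 3 to 4 when 1 library was left out. Without 1 library an arm holds a single sample, assumed to vary like the other group. Without the filter, more genes are tested (28637), and 26 of the 60 named genes lost their call, *DLX6* (adjusted p = 0.0667 by limma), *SNRPB* (0.0505) and *CARM1* (0.0508) among them. The cause was not tested. limma-voom on recovered reads, a choice made after seeing the data, called 3821 genes and 5 of the 10.

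With the replicate number as a block, 5119 genes and 6 of the 10 were called, *GEMIN6* being added. The labels do not say that a number marks a shared culture. The differences between replicates 1 and 2 correlated at 0.20 between the groups. With 2 pairs only, this cannot tell whether samples with the same number share anything else. edgeR's and DESeq2's tests on recovered reads had been planned and were not run, because the file holds FPKM. Precision is limited by 2 libraries a group and, for the snRNA genes, by few reads.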
